A study of Mus musculus with 6 samples.

Results

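The integrated stress response genes described here are ATF4, the transcription factors that act with it, and textbook targets that include the secreted factors Gdf15 and Fgf21. Of 10 genes chosen by name, 9 had a row among the 14133 genes of the deposited mouse heart table, and Fgf21 had none. RNA came from hearts of C57BL/6 mice aged 1 month, in 6 libraries. The 3 controls (replicates 3, 4 and 5) were Trx1 flox/flox, and the 3 others (replicates 6, 7 and 8) were Trx1 flox/flox/MHC-Cre, in which the promoter of Myh6, which is active in cardiomyocytes, drives Cre. Both groups carry the floxed alleles, so the groups differ in Cre as well as in any loss of Txn1, and those cannot be told apart. Nothing in the labels says that the libraries came from separate animals, so p-values measure the spread between these samples.

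The integrated stress response starts when kinases that sense amino acid shortage, unfolded protein in the endoplasmic reticulum, haem shortage or viral RNA phosphorylate the translation factor eIF2. General translation then falls, while the Atf4 messenger, whose upstream reading frames otherwise hold it back, is translated more, so that much of the control of ATF4 lies at the protein and is not read by RNA-seq. ATF4 pairs with C/EBP and other bZIP proteins on a composite element near its targets, which serve amino acid supply, feedback on the pathway and cell fate, and in muscle with defective mitochondria the response is known for the release of GDF15 and FGF21.

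Those composite elements were looked for first, because they are the sequences through which ATF4 is known to act. The element was spelled TGATGNAA and searched on both strands of RefSeq promoter windows (GRCm38.p6, 250 bases before to 50 after each annotated start, 300 bases in all). It was found in 5 of the 12 windows of the members, 1 window each for 5 of the 10 genes, against 3.97% of 32851 windows of all genes and 2.41% of the 14028 windows of genes in the table. The matches in 4 of them are shown with 10 bases on each side, 5′ to 3′ on the gene's strand, with the match in capitals.
Asns: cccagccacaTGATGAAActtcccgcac
Trib3: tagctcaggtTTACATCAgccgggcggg
Atf3: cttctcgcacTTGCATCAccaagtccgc
Fgf21: gacccccccaTTGCATCAtccgtccagg
These lie at chr6:7693215-7693242, chr2:152344029-152344056, chr1:191183426-191183453 and chr7:45615612-45615639, each on the minus strand. The match began 23 bases before the start of Asns, 15 after that of Trib3, 110 before that of Atf3 and 139 before that of Fgf21. Atf3 and Fgf21 shared the same 8 letters, TTGCATCA, as did Nupr1. These windows held none of the other motifs named here.

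The windows of the 3 genes that rose are given whole, because their RNA carries the difference between the groups. In Nupr1 (chr7:126625421-126625720, minus strand) the capitals mark the composite element, which began 110 bases before the start. In Ppp1r15a (chr7:45526219-45526518, minus strand) they mark a cyclic AMP response element, TGACGTCA, which began 12 bases before the start and was found in 1.79% of all windows. In the window of the more upstream of the 2 annotated Gdf15 starts (chr8:70632407-70632706, minus strand) nothing is in capitals.
Nupr1: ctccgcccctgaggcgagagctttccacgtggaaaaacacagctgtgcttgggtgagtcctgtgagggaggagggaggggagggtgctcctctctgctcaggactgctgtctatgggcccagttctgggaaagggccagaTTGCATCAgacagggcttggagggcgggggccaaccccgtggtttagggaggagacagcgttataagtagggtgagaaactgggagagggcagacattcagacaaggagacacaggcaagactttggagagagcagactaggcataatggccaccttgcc
Ppp1r15a: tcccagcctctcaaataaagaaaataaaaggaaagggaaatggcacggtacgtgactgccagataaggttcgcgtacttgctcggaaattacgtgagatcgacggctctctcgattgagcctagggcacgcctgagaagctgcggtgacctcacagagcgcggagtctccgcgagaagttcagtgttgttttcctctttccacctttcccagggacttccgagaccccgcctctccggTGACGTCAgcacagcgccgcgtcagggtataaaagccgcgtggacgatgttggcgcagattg
Gdf15: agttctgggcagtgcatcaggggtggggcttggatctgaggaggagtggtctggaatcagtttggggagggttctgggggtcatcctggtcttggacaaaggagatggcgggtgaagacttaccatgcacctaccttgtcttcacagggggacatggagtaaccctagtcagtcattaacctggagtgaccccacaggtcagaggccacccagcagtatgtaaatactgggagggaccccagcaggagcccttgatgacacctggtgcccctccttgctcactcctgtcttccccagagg
The second Gdf15 window and those of Atf4 and Atf5 held none of the motifs either. The Ddit3 window held an AP-1 element, TGACTCA, found in 5.2% of all windows, which began 242 bases before the start. The long ER stress element was in none of the members' windows and in 0.12% of all. A match is a string of letters and not a measured site, and its absence covers only these windows and these letters.

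**Figure D1:**
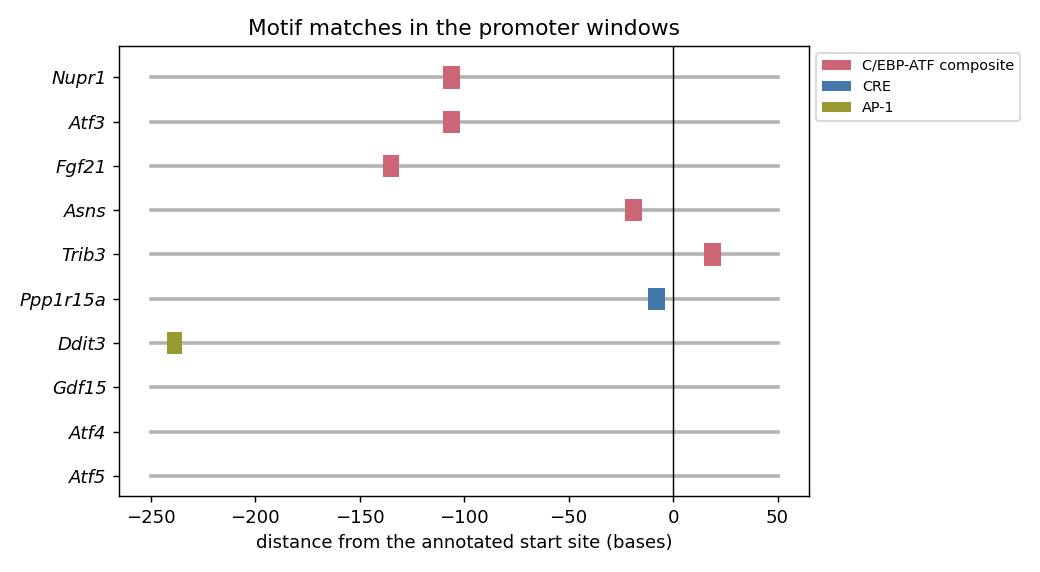
Position of motif matches in the promoter window of each of the 10 genes, with the distance in bases from the annotated start on the x axis and 1 line per gene (2 windows are merged for Gdf15 and for Atf5). The composite element lies in 5 genes, between 139 bases before and 22 after the start, and Gdf15, Atf4 and Atf5 have no match.

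The libraries held 8347636 to 13705281 reads, recovered from the deposited values. Txn1 itself was not lower in the libraries with Cre, with a log2 difference of 0.10 (95% confidence interval -0.22 to 0.42, limma adjusted p = 0.72), so this group is called labelled knockout. The value covers the whole gene and all cells of the heart. Of 12516 tested genes, 600 rose and 609 fell at an adjusted p under 0.05 (limma with an intensity trend, Benjamini-Hochberg). With 1 library left out, 403 (without control 4) to 2185 (without replicate 8) genes passed. Markers of cardiomyocytes were plentiful, with 10 markers summing to 142313 to 157512 CPM, the reads of a gene relative to library size, in the controls and 89752 to 121923 CPM in the libraries labelled knockout. The 10 fibroblast markers summed to 1856 to 2459 CPM in the controls and 3268 to 7936 CPM in the others, and 6 of them rose. Macrophage markers summed to 1030 to 1121 and 1259 to 1432 CPM, with 0 of 10 past the test. At an unadjusted p under 0.05 (limma) stood 3 of the 10, beside 24.8% of all tested genes. Differences were above 0 in 8 of the 10, and that of Cx3cr1 was -1.19 log2 (limma adjusted p = 0.16). The 10 endothelial markers summed to 2391 to 2487 CPM in the controls and 1875 to 2308 CPM in the others, and 1 rose and 1 fell. Adipocyte markers summed to 668 to 729 and 466 to 580 CPM, with Fabp4 in both lists. Fabp4 made up most of the adipocyte sum, so that sum says little of the other markers. Of 9 adipocyte markers with a row, 5 were below the filter and 4 were tested. Of these, 0 rose and 1 fell (Cfd, log2 difference -3.09, limma adjusted p = 0.039). The median of the tested markers was -1.73 log2, and 1 had a difference above 0. In bulk RNA, fewer cells of a type and less RNA per cell cannot be told apart, and the part of these shifts in the results was not tested.

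Hearts labelled knockout had more RNA of Gdf15, Nupr1 and Ppp1r15a than control hearts, while RNA of Atf4 and of its other partners and targets among the members did not pass the test. Gdf15 differed 7.47-fold, Nupr1 3.93-fold and Ppp1r15a 2.08-fold. Thus 3 of the 9 measured members rose and 0 fell, where 4.79% of all tested genes rose and 4.87% fell. The members were chosen with earlier results of these data known, so these shares are a description and not a test. No member had a difference below 0, and the lowest was 0.27 log2 (Atf3, -0.038 without replicate 8). Of all tested genes, 48.8% had a difference above 0. The median log2 difference was 0.57 over the 9 members, beside -0.01 for all tested genes. Group values did not overlap in 5 members, all higher in the labelled knockout, and that pattern was found in 14.4% of all tested genes. All 9 members passed the filter on low values.

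**Figure D2:**
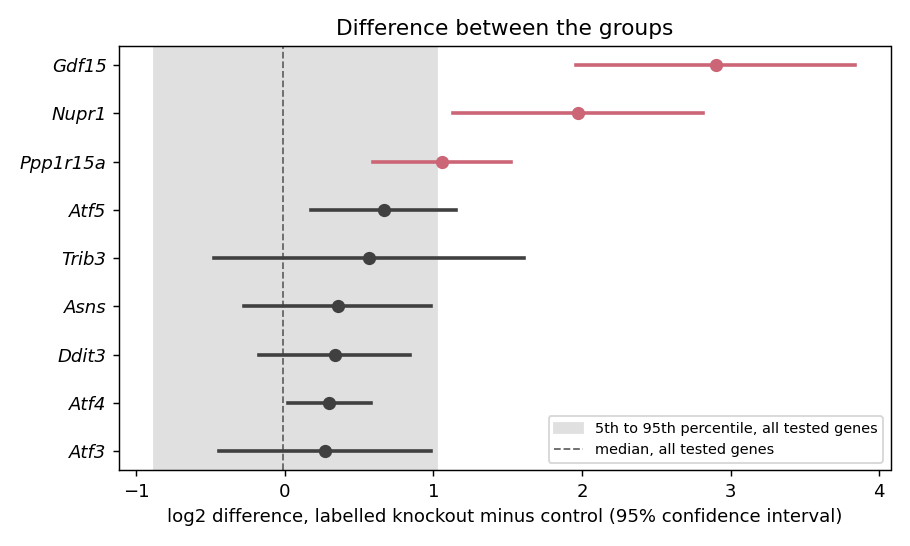
Log2 difference (labelled knockout minus control, x axis) of each of the 9 members, with 95% confidence intervals from limma, in red where the adjusted p was under 0.05. The grey band spans the 5th to 95th percentile of all 12516 tested genes (-0.88 to 1.03), and the point estimates of Gdf15, Nupr1 and Ppp1r15a lie beyond its upper edge.

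Gdf15, on chromosome 8 at 70629393 to 70632470 (mm10, minus strand), encodes a hormone of the TGF-beta superfamily that acts on a receptor in the hindbrain and is released by stressed heart and muscle. Its levels were 2.59, 1.78 and 1.34 log2 CPM in controls 3, 4 and 5, and 5.70, 4.79 and 3.92 log2 CPM for replicates 6, 7 and 8. Every library labelled knockout lay above every control, and replicate 6 was the highest and replicate 8 the lowest of its group. These levels stand for 80, 30 and 24 reads in the controls and 507, 282 and 129 reads in the others. The lowest of these, 24 reads, has an exact 95% Poisson interval of 15.4 to 35.7 reads, which covers counting error only. The group means were 1.90 ± 0.64 and 4.80 ± 0.89 log2 CPM (SD, n = 3 each), and the log2 difference was 2.90 ± 0.43 (SE, limma adjusted p = 0.0020). The exact permutation p (two-sided) was 0.1, which is the smallest that 3 against 3 allows. Only 0.423% of tested genes had a larger difference, which places Gdf15 at rank 54. The call held with any 1 library left out, over log2 differences of 2.45 to 3.34, and ended without the intensity trend in the variance (adjusted p = 0.057).

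Nupr1, on chromosome 7 at 126623246 to 126625470 (minus strand), encodes a small nuclear protein induced by many stresses that works as a cofactor of transcription. Its levels were 2.25, 1.35 and 1.98 log2 CPM in controls 3, 4 and 5 (63, 22 and 38 reads), and 4.39, 4.03 and 3.09 log2 CPM for replicates 6, 7 and 8 (203, 166 and 72 reads). The groups did not overlap, and the order within the labelled knockout group was that of Gdf15, with replicate 8 closest to the controls. The means were 1.86 ± 0.46 and 3.83 ± 0.67 log2 CPM (SD, n = 3 each), a log2 difference of 1.97 ± 0.39 (SE, limma adjusted p = 0.0080, exact permutation p = 0.1). Nupr1 ranked 153 of all tested genes by its difference. The call held with any 1 library left out (log2 differences of 1.70 to 2.35) and ended without the intensity trend (adjusted p = 0.065).

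Ppp1r15a, on chromosome 7 at 45522917 to 45526268 (minus strand), encodes GADD34, which guides protein phosphatase 1 to eIF2 and so switches the response off. Its levels were 5.40, 4.99 and 5.14 log2 CPM in controls 3, 4 and 5 (569, 285 and 347 reads), and 6.17, 6.70 and 5.83 log2 CPM for replicates 6, 7 and 8 (702, 1063 and 487 reads). The groups did not overlap, and here replicate 7 was the highest while replicate 8 was again the lowest of its group. The log2 difference was 1.06 ± 0.21 (SE, limma adjusted p = 0.0090, exact permutation p = 0.1). The call ended without control 4 or 5 (adjusted p = 0.061 and 0.058) and without the intensity trend (0.088). Tulp2, a gene on the other strand, overlaps Ppp1r15a over 717 bases of the annotation, but it was listed at 0 reads in 5 libraries and at 4.8 in replicate 6. Ppp1r15b, whose product forms the constitutive counterpart of that phosphatase, had a log2 difference of -0.21 ± 0.25 (SE, adjusted p = 0.65).

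Trib3, the other inhibitor among the members, encodes a pseudokinase that binds ATF4 and restrains it. Its levels were 1.78, 1.28 and 2.15 log2 CPM in the controls and 3.21, 2.23 and 1.48 log2 CPM for replicates 6, 7 and 8. The groups overlapped, because replicate 8 lay below control 3 and control 5. This gave a log2 difference of 0.57 ± 0.48 (SE, 95% confidence interval -0.48 to 1.61, limma adjusted p = 0.51). Trib3 was the most thinly read member, with 21 to 89 reads per library, and an interval that wide leaves both a lower level and a 3.05-fold higher level possible.

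**Figure D3:**
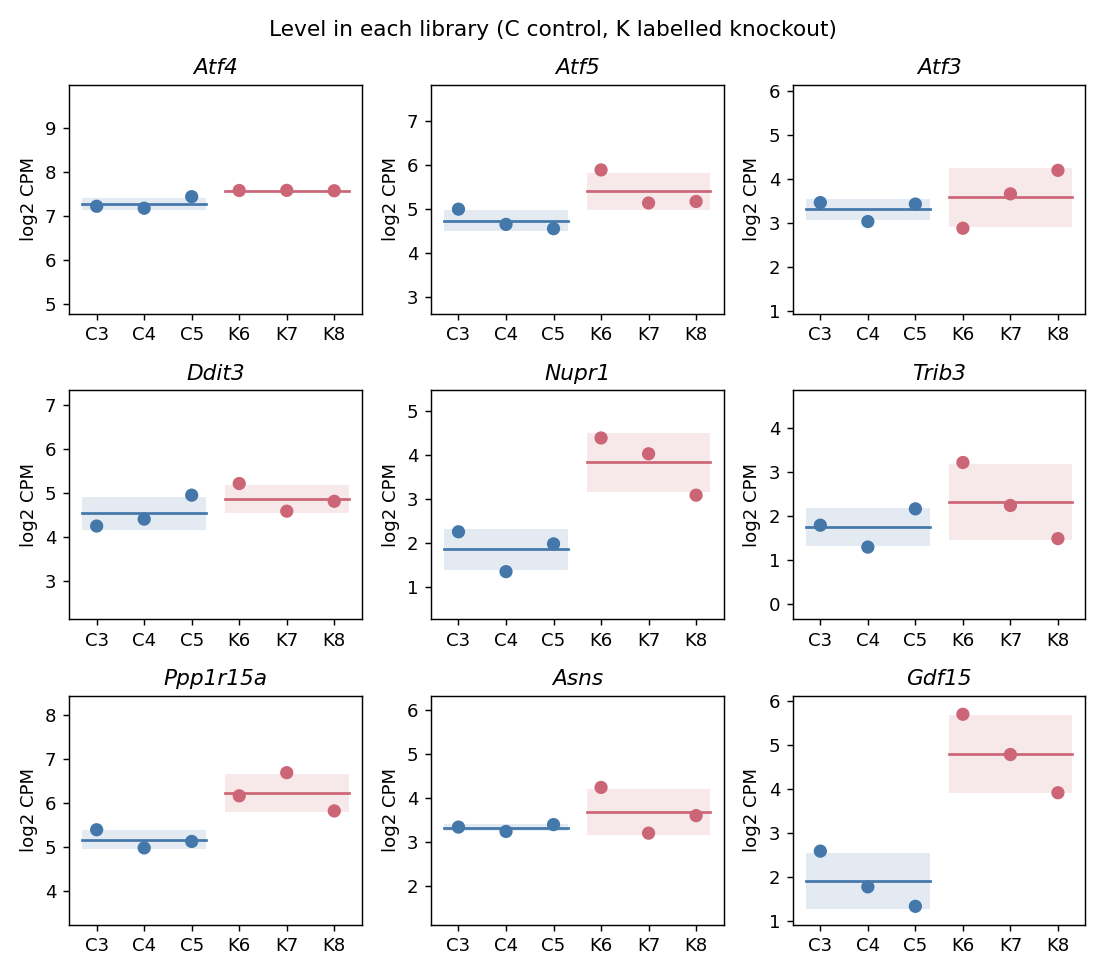
Level of each of the 9 members (log2 CPM, y axis, each panel spanning the same range of log2 units) in control libraries C3 to C5 (blue) and labelled knockout libraries K6 to K8 (red), with the mean of 3 as a line and ± SD as a band. Gdf15, Nupr1 and Ppp1r15a are higher in every red library, Atf4 and Atf5 are higher by less, and the other members overlap.

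Atf4, on chromosome 15 at 80255184 to 80257545 (plus strand), encodes the central transcription factor of the response. Its levels were 7.22, 7.17 and 7.44 log2 CPM in the controls and 7.58, 7.58 and 7.57 log2 CPM for replicates 6, 7 and 8. The 3 libraries labelled knockout lay above all controls and almost on top of each other. Their SD was 0.0045 log2, below the 0.034 that counting error alone gives at these read numbers. The log2 difference was 0.30 ± 0.13 (SE, 95% confidence interval 0.02 to 0.58), a 1.23-fold difference that did not pass the test over all genes (limma adjusted p = 0.16, exact permutation p = 0.1). Of all tested genes, 24.7% had a larger difference.

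Atf5 encodes a bZIP factor related to ATF4 whose messenger is also held back by upstream reading frames. Its levels were 4.996, 4.65 and 4.55 log2 CPM in the controls and 5.89, 5.14 and 5.17 log2 CPM for replicates 6, 7 and 8. The groups did not overlap, with replicate 6 standing above the other libraries. The log2 difference was 0.67 ± 0.22 (SE, 95% confidence interval 0.18 to 1.15, limma adjusted p = 0.083), and without replicate 8 the adjusted p was 0.0403. Nup62 and Il4i1 overlap Atf5 on the other strand over 571 and 272 bases. They had log2 differences of 0.06 and -1.12 (adjusted p = 0.89 and 0.065), neither of them higher past the test.

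Ddit3 encodes CHOP, a C/EBP family protein that ATF4 induces and that pairs with it. Its levels were 4.25, 4.41 and 4.95 log2 CPM in the controls and 5.22, 4.59 and 4.81 log2 CPM for replicates 6, 7 and 8. The groups overlapped, since control 5 lay above replicates 7 and 8. Its difference was 0.34 ± 0.23 log2 (SE, 95% confidence interval -0.17 to 0.84, limma adjusted p = 0.41). Mars overlaps the end of Ddit3 over 68 bases on the other strand and had a log2 difference of 0.12 (adjusted p = 0.68).

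Atf3 encodes a bZIP factor that is induced by stress and often represses its targets. Its levels were 3.47, 3.04 and 3.44 log2 CPM in the controls and 2.89, 3.67 and 4.202 log2 CPM for replicates 6, 7 and 8. Its order within the labelled knockout group was the reverse of that of Gdf15 and Nupr1, with replicate 6 below every control and replicate 8 the highest of all. The log2 difference was 0.27 ± 0.33 (SE, 95% confidence interval -0.44 to 0.99, limma adjusted p = 0.66), and without replicate 8 it was -0.038.

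Asns, on chromosome 6 at 7675165 to 7693209 (minus strand), encodes asparagine synthetase, the classical amino acid response target of ATF4. Its levels were 3.34, 3.24 and 3.39 log2 CPM in the controls and 4.24, 3.20 and 3.60 log2 CPM for replicates 6, 7 and 8. Replicate 6 was high, replicate 7 lay below every control, and the groups overlapped. Asns thus differed by 0.36 ± 0.29 log2 (SE, 95% confidence interval -0.27 to 0.98, limma adjusted p = 0.49), and 0.075 without replicate 6.

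The libraries of the labelled knockout group did not order the members in one way. Replicate 6 was the highest of the group in 6 of 9 members, replicate 7 in 2 and replicate 8 in 1, while replicate 8 was the lowest in 5. The median difference from the control mean over the 9 members was 1.00, 0.40 and 0.44 log2 in replicates 6, 7 and 8, against -0.0060, -0.0035 and 0.0061 log2 over all tested genes. Fibroblast markers had median differences of 1.82, 1.67 and 0.66 log2 in the same libraries and cardiomyocyte markers of -0.87, -0.60 and -0.32 log2, and their part in the members' values was not tested.

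Divided by transcript length, Atf4 had the highest level in both groups, 90.0 ± 9.0 CPM per kilobase in the controls and 110.4 ± 0.3 in the labelled knockout (SD, n = 3 each). In the controls Ddit3 came next (26.5 ± 7.1 CPM per kilobase), above the range of all members below it. Ppp1r15a and Atf5 (15.6 ± 2.3 and 15.4 ± 2.6) could not be separated by their ranges. Neither could Atf3, Asns and Nupr1 (5.01 ± 0.80, 4.96 ± 0.27 and 4.41 ± 1.36). Gdf15 and Trib3 had the lowest means (2.66 ± 1.24 and 1.65 ± 0.50 CPM per kilobase). The control range of Gdf15 (1.66 to 4.06) reached into that of Nupr1 (2.95 to 5.63). In the labelled knockout Gdf15 stood at 21.6 ± 12.9 and Nupr1 at 18.3 ± 7.6 CPM per kilobase. Both ranges then reached into that of Atf5 (24.99 ± 7.87) and lay wholly above that of Asns (6.64 ± 2.49).

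Upstream of ATF4, 0 of 21 signalling genes rose and 1 fell, which is 4.76% called, beside 9.66% of all tested genes. The 4 kinases that phosphorylate eIF2 had log2 differences of 0.08 (Eif2ak1, the haem-regulated kinase), 0.27 (Eif2ak2, the kinase activated by double-stranded RNA), 0.32 (Eif2ak3, PERK of the endoplasmic reticulum) and 0.27 (Eif2ak4, GCN2), with adjusted p from 0.45 to 0.86 (limma). The gene that fell is listed as 0610009O20Rik, which RefSeq names Dele1, and in human cells its product carries a mitochondrial stress signal from the protease OMA1 to the haem-regulated kinase. Its levels were 7.59, 7.62 and 7.71 log2 CPM in the controls and 6.61, 6.42 and 7.35 log2 CPM for replicates 6, 7 and 8. The groups did not overlap, with replicate 8 closest to the controls, and the log2 difference was -0.85 ± 0.20 (SE, limma adjusted p = 0.020). The call ended without any 1 of the 3 controls, or without replicate 6 or 7 (adjusted p up to 0.11), and without the intensity trend (0.13). Oma1 had a log2 difference of -0.43 ± 0.20 (adjusted p = 0.19), Nck1, an adaptor protein, of -0.46, and Gcn1l1, the partner of GCN2, of -0.20. The median over the list was 0.08 log2, and 3 of the 21 genes had an unadjusted p under 0.05, against 3098 of all 12516. Leaving out 1 library gave 0 higher and 0 to 2 lower.

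Of 24 tested bZIP partners and relatives of ATF4, 2 rose and 0 fell. That is 8.33% called, close to the 9.66% of all tested genes. Creb3, a membrane-bound factor of the endoplasmic reticulum and Golgi, rose 1.64-fold, from 5.38, 4.99 and 5.33 to 5.84, 6.26 and 5.75 log2 CPM (limma adjusted p = 0.027). Junb, an AP-1 subunit, rose 1.84-fold, from 5.01, 4.43 and 4.35 to 5.87, 5.27 and 5.29 log2 CPM (adjusted p = 0.030). In both, every library labelled knockout lay above every control. Without 1 library the list gave 0 to 5 higher and 0 to 1 lower, and the call of Creb3 ended without control 3, 4 or 5 or replicate 7 (adjusted p up to 0.15) and that of Junb without control 4 or 5 or replicate 6 (adjusted p up to 0.15). Both calls also ended without the intensity trend (adjusted p = 0.12 for Creb3 and 0.13 for Junb). Cebpb and Cebpg, which encode C/EBP partners of ATF4 on the composite element, had log2 differences of 0.20 and -0.22 (adjusted p = 0.51 and 0.76). Mafg and Atf1 had differences of 0.62 and 0.43 (adjusted p = 0.10 and 0.12).

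Further textbook targets of ATF4 went both ways, with 3 of 52 tested genes higher and 5 lower. Sqstm1, the gene of the autophagy receptor p62, rose 1.87-fold, from 8.74, 8.82 and 8.66 to 9.72, 9.83 and 9.40 log2 CPM (limma adjusted p = 0.0025). Slc7a5, the light chain of a large neutral amino acid transporter, rose 3.22-fold, from 1.78, 2.25 and 2.22 to 3.98, 4.31 and 3.03 log2 CPM (adjusted p = 0.012). The third, Slc38a2, a transporter of small neutral amino acids, had a log2 difference of 0.62 ± 0.17 (SE, adjusted p = 0.0399). The call of Slc7a5 ended without control 3 or replicate 7 (adjusted p up to 0.059) and that of Slc38a2 without control 3, 4 or 5 or replicate 7 (up to 0.15). All 3 calls ended without the intensity trend (adjusted p = 0.063 for Sqstm1, 0.068 for Slc7a5 and 0.17 for Slc38a2).

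Cth, the last enzyme of transsulfuration, fell from 2.09, 2.98 and 2.72 to 0.62, -0.03 and 1.14 log2 CPM (log2 difference -2.02 ± 0.48, SE, limma adjusted p = 0.020). Aldh1l2, a folate enzyme of mitochondria, fell from 2.68, 3.04 and 3.38 to 1.30, 0.56 and 1.28 log2 CPM (-1.99 ± 0.40, adjusted p = 0.0092). Gpt2, the mitochondrial alanine aminotransferase, fell from 5.50, 5.76 and 5.67 to 4.61, 3.78 and 4.58 log2 CPM (-1.32 ± 0.23, adjusted p = 0.0041). All 3 of these enzymes serve amino acid or folate metabolism, as do many other genes of this list. In each the groups did not overlap, a pattern found, lower in the labelled knockout, in 2032 of the 12516 tested genes. Vegfa, an angiogenic growth factor, and Herpud1, a gene of protein degradation at the endoplasmic reticulum, fell by 0.78 and 0.84 on the log2 scale (adjusted p = 0.0201 and 0.027). Calls ended without 1 library for Cth (without control 4 or 5 or replicate 7, adjusted p up to 0.12), Aldh1l2 (without control 4 or 5, up to 0.075), Vegfa (without control 4 or 5 or replicate 6 or 7, up to 0.12) and Herpud1 (without control 3, 4 or 5, up to 0.12). Without the intensity trend the call of Aldh1l2 held (adjusted p = 0.047), and those of Cth, Gpt2, Vegfa and Herpud1 ended (0.057 to 0.16).

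The other 44 targets did not pass, among them Chac1 and Sesn2 (0.34 and 0.28 log2, adjusted p = 0.78 and 0.72), and enzymes of serine synthesis and folate use with wide intervals, Psat1 (1.52, 0.22 to 2.82) and Mthfd2 (0.94, 0.14 to 1.74). The median over the 52 was 0.22 log2, 15.4% were called against 9.66% of all tested genes, and 35 of the 52 had a difference above 0, against 48.8% of all tested genes. An unadjusted p under 0.05 (limma) was found for 19 of the 52, against 24.8% of all tested genes, 13 of them higher and 6 lower. Group values did not overlap in 13 higher and 7 lower genes. Those patterns were found in 14.4% (higher) and in 2032 of the 12516 (lower) of all tested genes. With 1 library left out 1 to 11 rose, the 11 without replicate 8, and 1 to 5 fell. Promoter windows were at hand for 40 of the 52, and 13 of those held the composite element. Of these 13, 0 rose and 1 fell (Herpud1), and of the 27 genes without it 2 rose and 2 fell. Of all tested genes, 4.79% rose and 4.87% fell. The median difference was 0.27 log2 for the 13 and 0.28 log2 for the 27. Slc7a5, Cth and Aldh1l2 had no window at hand and are outside this comparison.

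**Figure D4:**
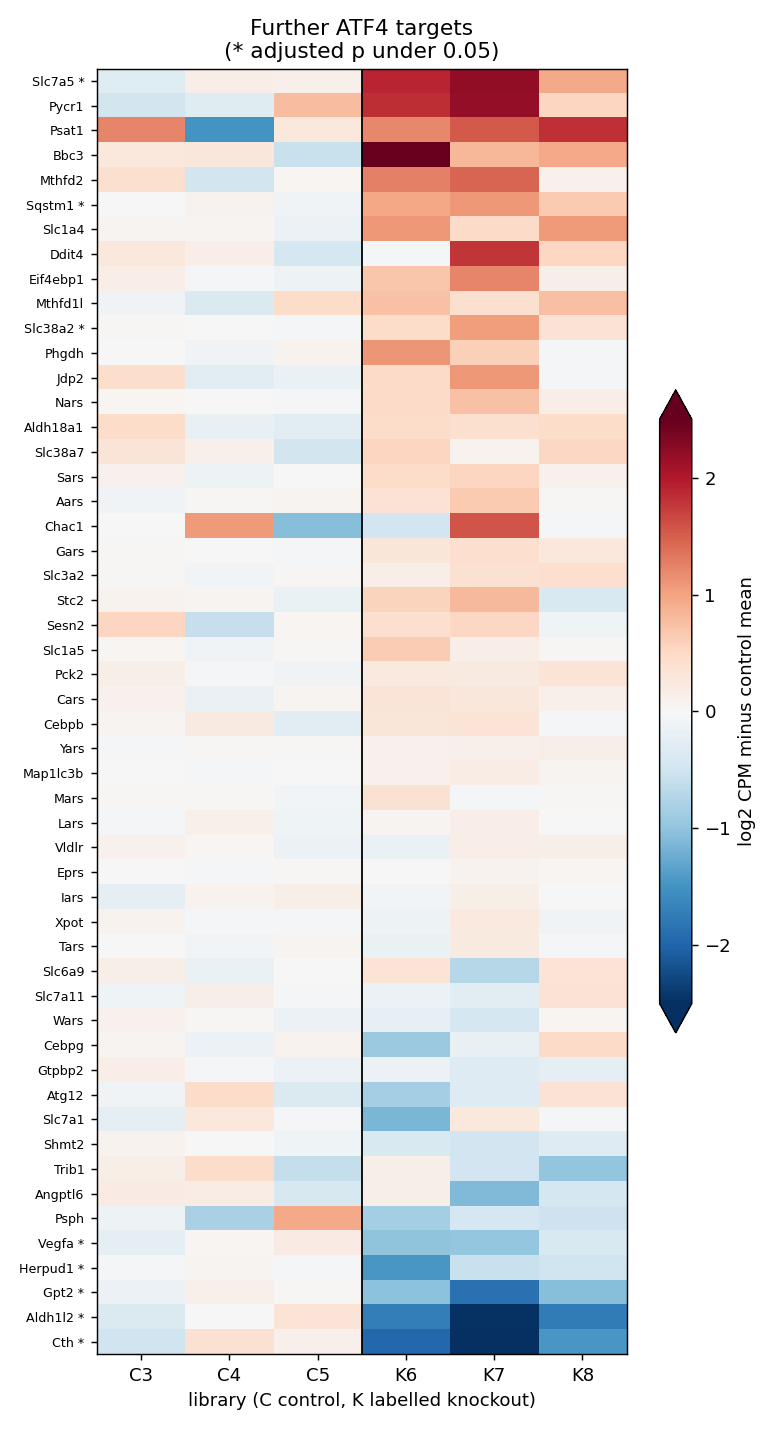
Level of 52 further ATF4 targets in each library relative to the control mean of the gene (log2, colour scale held to ± 2.5), ordered by the log2 difference between the groups, with stars at genes with an adjusted p under 0.05. The 3 starred genes in the upper part rose and the 5 at the lower end fell. Replicate 8 (K8) is paler than K6 and K7 for Slc7a5 and Sqstm1, while for Gpt2 K6 and K8 are alike and K7 is the darkest.

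Genes of the mitochondrial stress response, chaperones and proteases of that organelle, fell or did not pass the test, with 0 of 23 higher and 3 lower. That is 13.0% called, beside 9.66% of all tested genes. At an unadjusted p under 0.05 stood 10 of the 23, against 24.8% of all tested genes, and 8 of the 10 had differences below 0. The other 2 were the protease genes Spg7 and Afg3l2, with log2 differences of 0.28 and 0.35 (limma adjusted p = 0.18 and 0.14). Hspd1 and Hspe1, which encode the chaperonin HSP60 and its partner HSP10, fell by 0.84 and 0.66 on the log2 scale (limma adjusted p = 0.022 for each), and Timm23, a channel subunit of the inner membrane import machinery, by 0.58 (0.027). Hspd1 went from 9.21, 9.17 and 8.87 to 7.79, 8.19 and 8.75 log2 CPM, so that replicate 8 lay just below the lowest control. The list median was -0.24 log2, and without 1 library 0 to 1 rose and 0 to 7 fell. The calls of all 3 ended without any 1 of the controls or without replicate 7, and that of Hspd1 also without replicate 6 (adjusted p up to 0.14). They ended without the intensity trend too (adjusted p = 0.12 for Hspe1 and Timm23 and 0.14 for Hspd1).

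In the unfolded protein response of the endoplasmic reticulum, 0 of 28 tested genes rose and 1 fell, Herpud1, which is also in the list of targets. That is 3.57% called, where 9.66% of all tested genes were. Hspa5, the gene of the chaperone BiP, stood at 9.79, 9.65 and 9.69 log2 CPM in the controls and at 9.36, 9.50 and 9.87 log2 CPM for replicates 6, 7 and 8 (log2 difference -0.13, 95% confidence interval -0.46 to 0.19). Xbp1 and Sel1l, a transcription factor and a degradation adaptor of that response, had differences of 0.35 and 0.44 (adjusted p = 0.16 and 0.15), and Calr, a calcium-binding chaperone, of -0.28 (0.22). The median was 0.08 log2, with 3 genes at an unadjusted p under 0.05 (24.8% of all tested genes) and 0 higher by limma-voom on the recovered reads.

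For the 2 secreted members, genes of the receiving side were looked at in the same hearts. Of 4 tested, 1 rose and 1 fell, where 4.79% of all tested genes rose and 4.87% fell. Gfral, the GDF15 receptor, had no row. Ret, its coreceptor, fell from 3.14, 2.62 and 3.52 to 2.11, 0.56 and 1.25 log2 CPM (log2 difference -1.79 ± 0.45, SE, limma adjusted p = 0.026), and the groups did not overlap. Fgfr1, a receptor that FGF21 uses together with beta-klotho, rose 1.58-fold, from 5.64, 5.58 and 5.36 to 6.51, 6.16 and 5.90 log2 CPM (adjusted p = 0.034). Fgfr2, another FGF receptor gene, had 8.33, 2.67 and 5 reads in the controls and 21.67, 39 and 11.33 in replicates 6, 7 and 8. The groups did not overlap, but the log2 difference of 2.07 (95% confidence interval 0.52 to 3.62) did not pass the test (limma adjusted p = 0.090). Fgfr3, of the same family, had a log2 difference of 0.26 (adjusted p = 0.64), which was -0.06 without replicate 7. Klb, the gene of beta-klotho, had 7, 11 and 2 reads in the controls and 0 reads in every library labelled knockout, too few to pass the filter. The call of Ret ended without any 1 control or without replicate 7 and that of Fgfr1 without any 1 control or without replicate 6 or 7 (adjusted p up to 0.16). Both also ended without the intensity trend (adjusted p = 0.085 for Ret and 0.14 for Fgfr1).

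Among the genes whose pattern over the 6 libraries lay closest to Gdf15 were Adamtsl2, Mfap4, Nppb and Mfap5, by the root-mean-square distance between differences from the control mean. Their distances were 0.401 to 0.499 log2, where the median over 10652 compared genes was 2.17 log2. By this measure any gene without a difference lies far from Gdf15, so it mainly picks genes with a difference of similar size. The log2 differences of these genes ran from 2.61 (Mfap5) to 3.11 (Mfap4), beside 2.90 for Gdf15, and a link between them was not tested. Nppb encodes the B-type natriuretic peptide, and Adamtsl2, Mfap4 and Mfap5 proteins of the matrix and its microfibrils. Mfap5 is also among the fibroblast markers. Adamtsl2 was 3.43, 3.70 and 1.81 log2 above its control mean in replicates 6, 7 and 8, beside 3.80, 2.89 and 2.02 log2 for Gdf15. For Atf4 the closest were Pip5k1c, Mrps23, Edem2, Tex10 and Gabarap at 0.030 to 0.046 log2. Within 0.1 log2 of Atf4 lay 75 of the 10652 compared genes, where the median distance was 0.39 log2.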

How the data were processed

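Per the labels' protocols, RNA was extracted from hearts with TRIzol and made into Illumina libraries. Per the submitters' processing notes, reads were aligned to mm10, with CASAVA, HISAT2 and edgeR named without version or order. The authors deposited log2 CPM for 14133 genes, and the name of the deposited table refers to RefSeq NM transcripts. The sources used here do not say whether counting used strand. The lowest value was -3.29 log2 CPM in every library, so 0.102 CPM had been added. Steps above the floor gave reads per gene, whole within 0.002 reads in all libraries for 71.7% of genes and for all 9 members. These reads are used for depth, for the reads given per gene, for counting error and for limma-voom, and not for the main test.

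Genes whose mean reached 0 log2 CPM or more were tested with limma 3.58.1 (R 4.3.3), a group-means model with an intensity trend, two-sided, Benjamini-Hochberg adjustment over 12516 genes and a threshold of 0.05. Rose and fell mean past that threshold. The model with the trend was tested on simulated counts that had the same setting of spread for every gene and library. That simulation does not show how far calls depend on the trend or on single libraries. Symbols, coordinates and promoters come from RefSeq (GRCm38.p6, the assembly of mm10), with promoters for all 10 members, and transcript lengths and overlaps from GENCODE M21. Members and lists were chosen with earlier results of these data known. Named by rule were the members, Txn1, up to 4 genes per list with the smallest p, further called genes with at least 2-fold differences, and the 5 nearest patterns to Atf4 and to Gdf15, of which 1 is not reported here. Slc38a2, Vegfa, Ppp1r15b, Spg7, Afg3l2, the 4 kinases, Cebpb, Cebpg, Chac1, Sesn2, Psat1, Mthfd2, Hspa5, Klb and the genes that overlap members were chosen after their values were seen. Alternatives were no filter or a mean of at least 3, median-centred or quantile-normalized libraries, log2(CPM + 1), no or a robust trend, library weights, limma-voom, a threshold of 0.01, and each library left out.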

Additional observations from a re-analysis of the deposited data

How the results depend on the processing

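The count of 1209 genes past the test was 121 without the intensity trend, 432 at a threshold of 0.01 and 403 to 2185 with 1 library left out. The members that rose numbered 0 without the trend, 2 with a filter at a mean of 3 log2 CPM (where Nupr1 was not tested) and 2 to 4 with 1 library left out. The 0 members that fell stayed 0 in all 16 settings. Further ATF4 targets that rose numbered 0 without the trend, 5 with library weights, 1 at a threshold of 0.01 and 1 to 11 with 1 library left out. Those that fell numbered 3 with that filter, 1 without the trend, 2 at a threshold of 0.01 and 1 to 5 with 1 library left out. Apart from filters and left-out libraries, which change the genes or samples, the cause was not tested. Of the members, Txn1 and the genes named by rule in the lists, 3 differences turned direction, Atf3 without replicate 8 (range with 1 library left out -0.038 to 0.62), Txn1 without control 3 (-0.025 to 0.18) and Fgfr3 without replicate 7 (-0.060). Of 16 called genes in the lists, 15 lost the call without the intensity trend (adjusted p = 0.057 to 0.17). Members kept their direction under both scaling alternatives. No paired analysis was possible because the groups share no replicate numbers. Read numbers limit Trib3, Nupr1 and Gdf15 most, with 21, 22 and 24 reads in their lowest library.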
